A study of Oryza sativa with 4 samples.

Results

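The B-type cyclins and the B-type cyclin-dependent kinases (CDKs) of rice (Oryza sativa) were followed in leaves of 3-week-old plants. They were found by matching the names CYCB1-1, CYCB2-1, CYCB2-2, CDKB1-1 and CDKB2-1 to symbols and synonyms of the RefSeq gene table, which gave 6 genes. Of these, 5 had a probe set with a single gene in the platform table, among 17905 such genes on the array, and together they had 6 probe sets. The name CYCB1-1 matched both LOC4327547 and LOC4326914; the table lists the second also as CYCB1-3, the name used for it here. CDKB1-1 (LOC9269568) and a further B-type cyclin gene found by name, CYCB1-5, were not analysed here. The members had been chosen with their difference between the genotypes known, so their values describe that difference and no p-value is given for them.

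Plants that overexpress OsBIERF3 (OsBIERF3-OE), an ethylene-responsive factor type of transcription factor, were compared with wild type (WT). Total RNA of the leaves was hybridized to 1-colour Affymetrix rice arrays, with 2 arrays per genotype and 1 sample on each. Both genotypes were grown without stress, at 28 °C in 14 h of light and 26 °C in 10 h of dark. The promoter of the transgene, the number of transgenic lines and whether plants were pooled are not given in the sources used here, and the transgene's own level, that of OsBIERF3, was not analysed here.

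In plants, cyclins of the B type accumulate from late S phase into mitosis and activate CDKs that drive the entry into and passage through division. B-type CDKs are a plant class whose own transcripts also peak around the transition from G2 to M phase, unlike the A-type CDK, which is present throughout the cycle. Promoters of such late genes often carry an element that MYB3R transcription factors recognise. In grass leaves, cells divide in young leaves and at the base of a growing blade, and mature blade cells no longer divide. In RNA from whole leaf samples, a different number of dividing cells and a different amount of RNA per dividing cell cannot be told apart.

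The transcripts of 4 measured genes, CYCB1-1, CYCB2-1, CYCB2-2 and CDKB2-1, were at or near background in WT leaves and clearly above it in OsBIERF3-OE leaves. Background is taken here as the highest signal among 33 controls that match no rice transcript, which lay between 25.1 and 28.0 signal units on the 4 arrays. CYCB1-1 and CDKB2-1 were above it on all arrays, whereas CYCB2-1 and CYCB2-2 were above it in OsBIERF3-OE only. CYCB1-3 did not exceed it on any array. Signals of different probe sets are not on a common scale, so levels are compared between arrays and not between genes.

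CYCB1-1 (LOC4327547) encodes a mitotic cyclin whose promoter is widely used as a marker of cells in G2 and M phase in Arabidopsis. WT replicates 1 and 2 gave signals of 53.9 and 41.5, and replicates 1 and 2 of OsBIERF3-OE gave 1229 and 1241. Both OsBIERF3-OE arrays were high and nearly equal, and the groups did not overlap. The WT mean was 47.7 ± 8.8 and the OsBIERF3-OE mean 1235 ± 8.5 (SD, n = 2 each). The log2 change, OsBIERF3-OE minus WT, was 4.71 with a standard error of 0.165, a 26.1-fold difference. Among the 13972 genes above background on all 4 arrays, this was the rise of rank 7.

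CYCB2-2 (LOC4342121) encodes a B2-type cyclin that has been described in rice as a partner of CDKB2-1, and 2 probe sets measured it. The brighter one read 14.5 and 10.0 in WT, and in OsBIERF3-OE it read 621.6 and 624.4. Its means were 12.3 ± 3.16 and 623 ± 1.95 (SD, n = 2 each). Neither WT array was above background, so the rise is given as a lower bound, at least 24.4-fold, and the fitted log2 change of 5.69 is not a measured size. The second probe set, whose name ends in x_at and marks probes that may also match other sequences, read 11.7 and 9.09 in WT and 253.6 and 261.4 in OsBIERF3-OE. Its rise was at least 10.1-fold. Both probe sets separated the genotypes in the same direction, and their fitted changes differed by 1.04 on the log2 scale.

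CYCB2-1 (LOC4336670), the other B2-type cyclin gene, read 19.7 and 24.0 in WT and 305.2 and 282.9 in OsBIERF3-OE. The WT arrays were just under background and both OsBIERF3-OE arrays were far above it. The means were 21.8 ± 3.05 and 294 ± 15.8 (SD, n = 2 each), a rise of at least 11.5-fold.

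CDKB2-1 (LOC4346016) encodes a B-type CDK, the catalytic partner in such complexes. Its signal was 37.3 and 35.4 in WT and 385.4 and 376.9 in OsBIERF3-OE, with no overlap between the groups. The means were 36.4 ± 1.28 and 381.1 ± 6.01 (SD, n = 2 each). The log2 change was 3.39 with a standard error of 0.131, a 10.5-fold difference, and of rank 34 among the genes above background on all arrays. CYCB1-1 and CDKB2-1 were thus both measured on either side, and their log2 changes differed by 1.32, with CYCB1-1 the larger. This difference was not tested, and the probe sets of CYCB2-2 alone differed by 1.04 in their fitted changes.

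CYCB1-3 (LOC4326914) read 7.72 and 8.20 in WT and 17.5 and 17.8 in OsBIERF3-OE. The OsBIERF3-OE arrays were again the higher ones, but all 4 values lay below the background controls, so no fold is given. Its mean log2 signal corresponds to 11.8 signal units (a geometric mean), below the limit for testing of 12.3 on that scale, and it is counted in none of the tested genes.

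**Figure D1:**
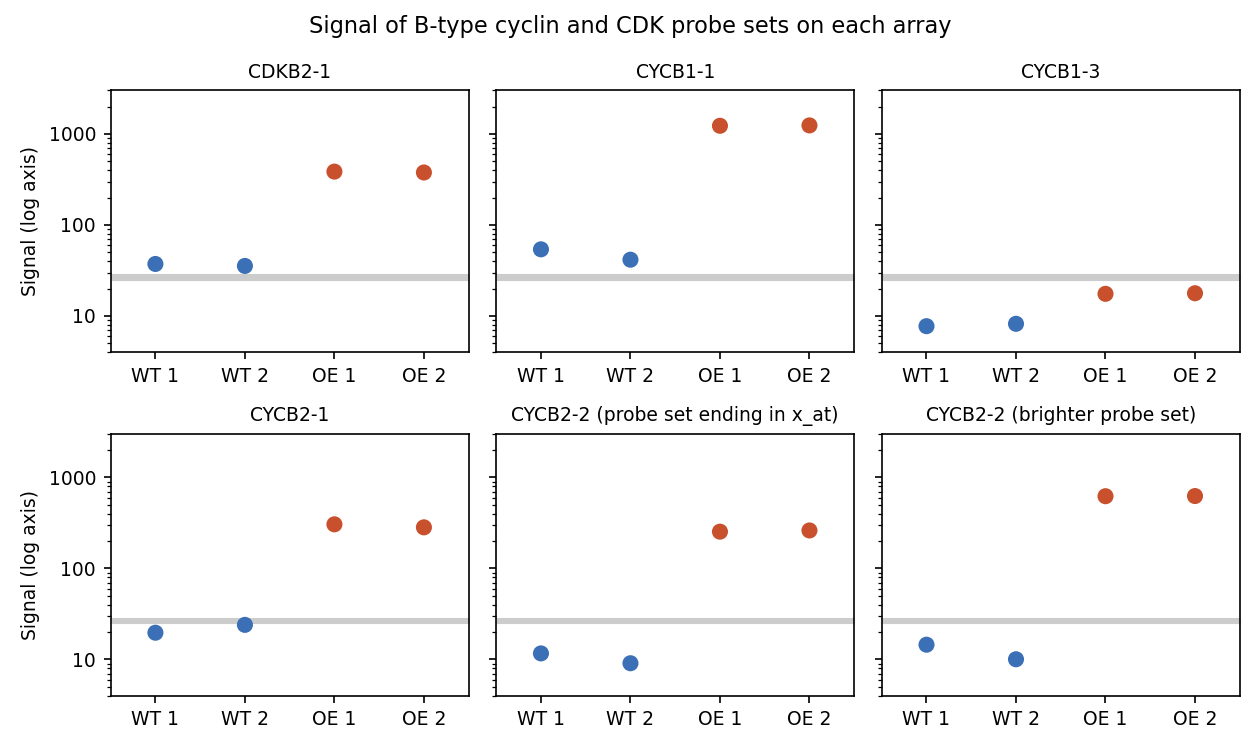
Signal (log axis) of each of the 6 probe sets on WT arrays 1 and 2 (blue) and OsBIERF3-OE arrays 1 and 2 (orange), 1 point per array. The grey band spans the background controls, 25.1 to 28.0. All OsBIERF3-OE points except those of CYCB1-3 lie above the band, while in WT the points of CYCB1-1 and CDKB2-1 lie above it.

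For each of the 5 tested probe sets the OsBIERF3-OE replicates lay closer together than the WT replicates. In OsBIERF3-OE the gap between replicates over the 5 tested probe sets was at most 0.11 on the log2 scale, reached by CYCB2-1, against a median gap of 0.165 over all tested probe sets. In WT the gap exceeded the median over all tested probe sets, 0.163, for 4 of the 5: it was 0.38 for CYCB1-1, 0.29 for CYCB2-1, and 0.53 and 0.36 for the brighter and the x_at probe set of CYCB2-2. Of these, CYCB1-1 was the one with both WT signals above background. The WT gap of CDKB2-1 was 0.0719. Precision is limited throughout by there being 2 arrays of each genotype.

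All 4 tested genes passed limma's adjusted p threshold of 0.05 on the higher side. Of the 15981 genes tested, 17.2% passed on that side and 31.8% on either. All 5 tested probe sets passed as higher too, as did 12.4% of all probe sets, with 24.2% passing on either side. A fitted log2 change of 3 or more together with the same call was found for these 4 genes and for 1.14% of all genes tested. The limit for testing, 12.35, was set on the mean over all 4 arrays. By WT signals alone, with means of 12.29 and 10.37, both CYCB2-2 probe sets lay under it. They were thus tested only through their high OsBIERF3-OE signals. For this reason, and since the members were picked on this very contrast, nothing is read from these counts. Their median log2 change was 4.23, or 4.07 with dim signals raised to background, beside a median of -0.04 over all genes tested. Under each of 12 processing alternatives, replicates left out included, the 4 genes kept their direction and their call. Nothing is read from that either. The log2 change ran from 4.30 to 4.99 for CYCB1-1 and from 2.92 to 3.68 for CDKB2-1, and from 3.04 to 4.04 for CYCB2-1. For CYCB2-2 it ran from 4.50 to 5.98, and the low end came from adding 16 to each signal before taking logs, which damps dim signals.

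**Figure D2:**
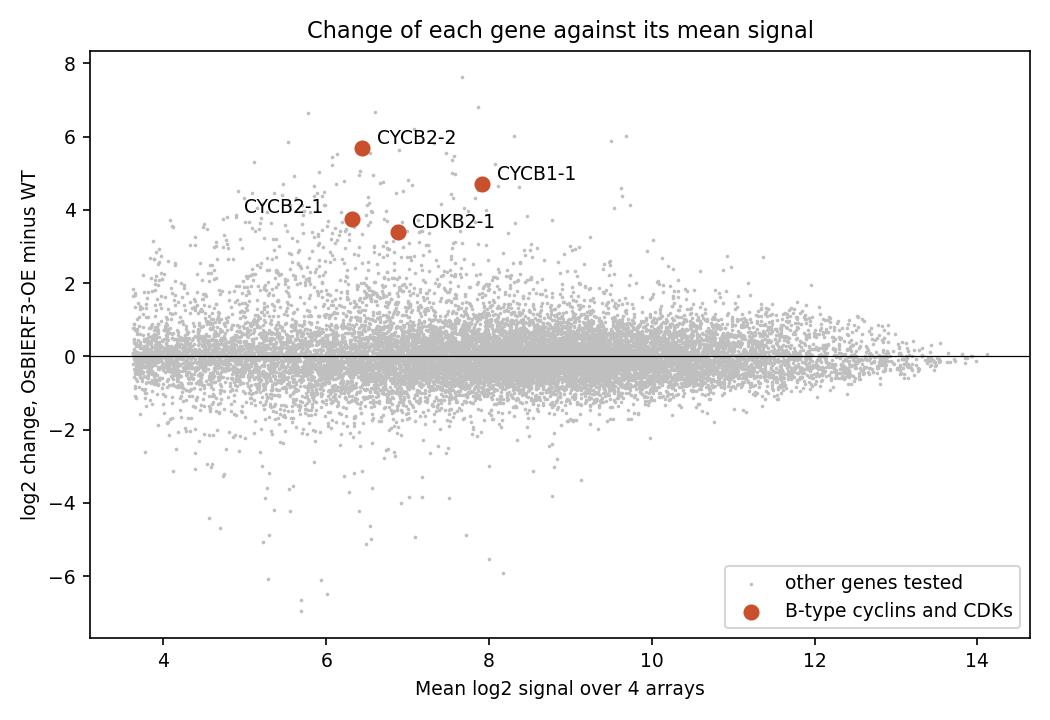
The log2 change (OsBIERF3-OE minus WT) of each of the 15981 tested genes against its mean log2 signal over 4 arrays, 1 point per gene, with the B-type cyclins and CDKs in orange. The 4 named genes lie between 3.39 and 5.69, above most genes of like mean signal.

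**Figure D3:**
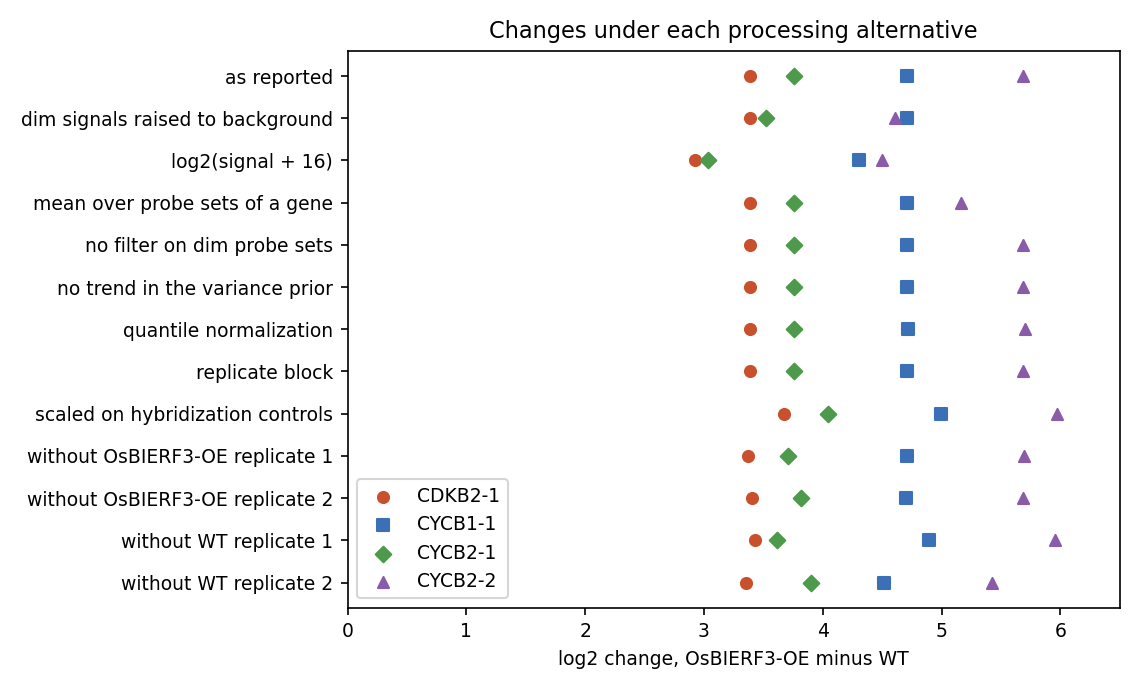
The log2 change of the 4 tested genes (axis in log2 units) as reported and under each of the 12 processing alternatives, 1 marker per gene. CDKB2-1 and CYCB1-1 move least; CYCB2-2, whose WT signals were under background, is lower with signals raised to background (4.61) and with 16 added (4.50).

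Signs of RNA or cRNA integrity moved with the genotype. For actin, signal at the 3′ end relative to the 5′ end was lower in OsBIERF3-OE for 3 of 3 probe set pairs, by a log2 difference of up to 0.85. For GAPDH the ratio was 12.8 and 11.2 in WT and 7.37 and 7.25 in OsBIERF3-OE. For ubiquitin it was 1.52 and 1.38 in WT and 1.17 and 1.24 in OsBIERF3-OE, again lower without overlap. For cyclophilin the ratios overlapped, at 1.71 and 1.82 in WT and 1.82 and 1.81 in OsBIERF3-OE. What part these 3′ to 5′ differences have in the log2 changes of the B-type genes was not tested. Hybridization controls were dimmer on the OsBIERF3-OE arrays, and scaling the arrays on them raised the median change of all genes from -0.04 to 0.24 and shifted the calls from 2755 higher and 2319 lower to 4614 higher and 865 lower.

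Other cyclins and CDKs are given next, from lists of names drawn up with earlier results of these data known. Of 3 tested A-type cyclin genes, which act from S phase into mitosis, 2 rose and 1 fell (all genes tested: 17.2% higher and 14.5% lower), with a median log2 change of 2.78. CYCA2-1 read 55.2 and 67.4 in WT and 656.2 and 644.9 in OsBIERF3-OE, a 10.7-fold rise (limma adjusted p = 0.000361). CYCA3-2 rose 6.85-fold (limma adjusted p = 0.000478). CYCA1-4 was 1.52-fold higher in WT (limma adjusted p = 0.0314), a call that was lost whichever array was left out, with adjusted p from 0.061 to 0.144.

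D-type cyclins couple hormone and sugar signals to the start of the cycle. Of 9 tested, 6 rose and 3 did not pass (all genes tested: 17.2% higher), with a median log2 change of 1.42. CYCD5-2, named after its values were seen, did not pass by its brightest probe set (log2 change -0.30). With its probe sets averaged it was called higher (1.41, limma adjusted p = 0.0033), and 7 genes of the list then rose. CYCD4-2 rose 6.25-fold, CYCD2-2 5.15-fold and CYCD4-1 4.50-fold (limma adjusted p = 0.0032, 0.00177 and 0.0106). CYCD4-1 read 74.0 and 42.4 in WT, the widest gap of these 3 genes, and 294.5 and 215.7 in OsBIERF3-OE.

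The CDKs outside the B class had a median log2 change of -0.19, and of 10 tested, 2 passed as higher and 8 did not pass. That count is near the share over all genes tested, 17.2% higher, and nothing is read from it. The 2 were CDKA-1 and CDKA-2, the catalytic subunits used throughout the cycle, 1.44-fold and 1.78-fold higher (limma adjusted p = 0.0303 and 0.0208). CDKA-1 read 567.3 and 568.6 in WT and 770.6 and 866.5 in OsBIERF3-OE. It did not pass without any 1 of the 4 arrays (adjusted p from 0.0507 to 0.125), and CDKA-2 passed only without WT replicate 1 (adjusted p up to 0.0839 without another).  With probe sets averaged, neither passed (adjusted p = 0.0501 and 0.110). A second CDKA-1 probe set and 1 of 3 for CDKA-2 did not pass either. The difference between these changes and those of CDKB2-1 was not tested.

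Among 7 tested CDK inhibitors and modifiers, 2 rose and 5 did not pass (all genes tested: 17.2% higher), with a median log2 change of 0.08. KRP5, a Kip-related inhibitor gene, rose 2.01-fold (limma adjusted p = 0.0125; 0.0596 without WT replicate 2). SMR1 rose at least 4.61-fold (limma adjusted p = 0.00212). Of 3 regulators upstream of cell cycle genes, RBR1, a retinoblastoma-related repressor of E2F factors, rose at least 4.48-fold (limma adjusted p = 0.00058). Its WT signals, 10.2 and 9.88, lay under the limit for testing of 12.35. RBR1 was thus tested only through its OsBIERF3-OE signals, 131.5 and 99.6, and its p-value is not independent of the rise. A second RBR1 probe set was under background throughout and not tested, at 5.45 and 5.09 in WT and 5.29 and 5.81 in OsBIERF3-OE. RBR2 and MYB3R-2, both named after their values were seen, did not pass. MYB3R-2, a factor of the class that binds promoters of G2 and M phase genes, read 258.1 and 231.3 in WT and 239.9 and 255.0 in OsBIERF3-OE. The median log2 change of the 3 was 0.02.

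Genes that act beside the B-type cyclins in mitosis, and genes of DNA replication, were largely higher too. Their counts stand beside 17.2% higher and 14.5% lower over all genes tested. Both tested genes of the list of chromosome segregation rose, with a median log2 change of 3.23. CENH3, the centromeric histone, rose 6.58-fold (limma adjusted p = 0.00122). RSS1, in rice a target of the anaphase-promoting complex, read 32.7 and 25.1 in WT, above background on 1 of the 2 arrays, and 375.1 and 395.2 in OsBIERF3-OE, a 13.4-fold difference (limma adjusted p = 0.000438). Of 16 tested microtubule proteins of the spindle and the cell plate, 12 rose and 4 did not pass, with a median of 1.52, or 1.18 with dim signals raised to background. STD1 and KIN10C rose at least 13.9-fold and 9.14-fold, and KIN12C, above background on 1 of the 2 WT arrays, 25.5-fold. Of 22 tested DNA replication genes, 15 rose, 1 fell and 6 did not pass, with a median of 1.37, or 1.10 with dim signals raised. The gene that fell, MCM9, was named after its values were seen and was 1.57-fold higher in WT (limma adjusted p = 0.0238). It did not pass without any 1 of the 4 arrays (adjusted p from 0.0717 to 0.113) or after scaling on hybridization controls (0.0962). The helicase subunit genes MCM3 and MCM5 rose at least 20.9-fold and 12.2-fold, and MCM4 12.9-fold. The limma adjusted p-values of the genes named here as higher lay at or below 0.00122. The difference in actin, GAPDH and ubiquitin 3′ to 5′ ratios stands beside these groups as well.

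**Figure D4:**
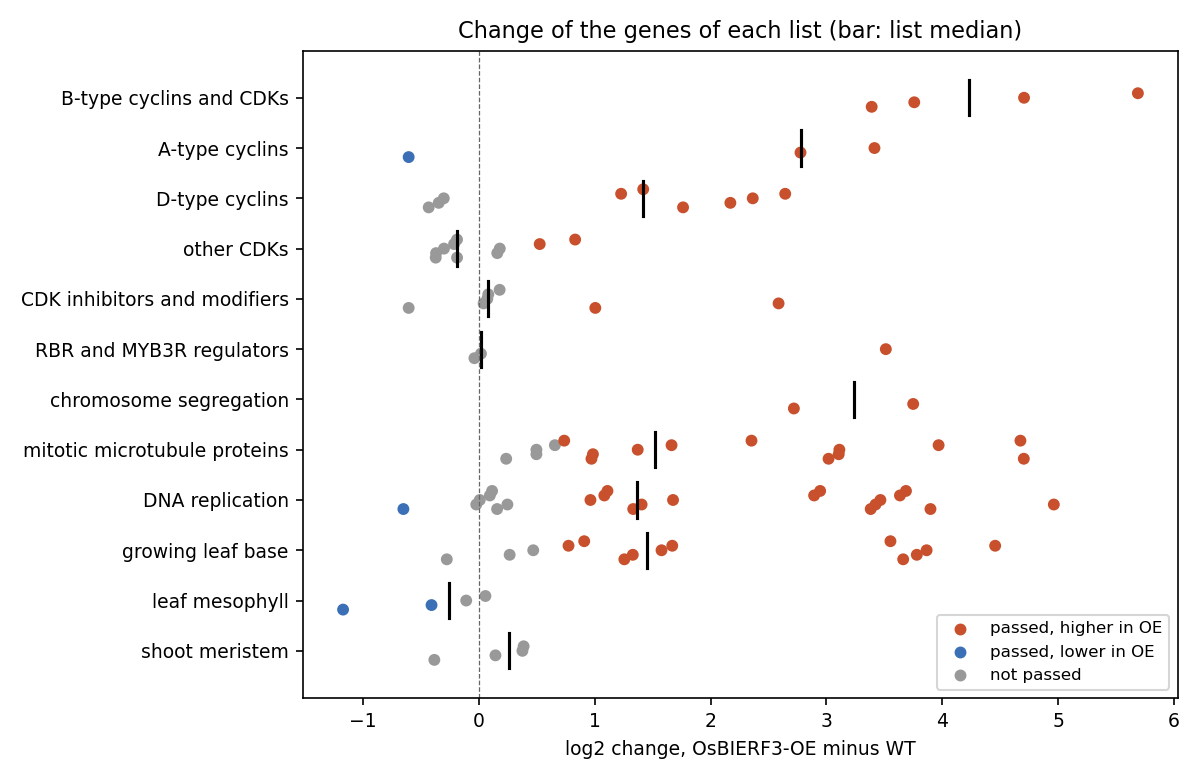
The log2 change (OsBIERF3-OE minus WT) of every tested gene by list (root and panicle lists are not drawn), 1 point per gene, with a black bar at the list median. Orange points passed as higher and blue as lower in OsBIERF3-OE, and grey points did not pass. The B-type genes lie at 3.39 to 5.69, and the other CDKs have a median of -0.19.

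Genes of like pattern were sought among 2041 named genes that were tested and above background in OsBIERF3-OE. Log2 signals were centred on each gene's mean over the 4 arrays, and the distance (Euclidean, in log2 units) to the mean of the 4 B-type genes was taken. The nearest was OsRPA70b, which encodes the large subunit of the single-strand DNA binding replication protein A, at a distance of 0.193. Its signal was 28.7 and 21.3 in WT and 545.6 and 537.1 in OsBIERF3-OE. GRF10 followed at 0.259, KCS20, a gene for making very long fatty acids, at 0.271 and the kinesin gene KIN12C at 0.300. OFP8, an ovate family gene, lay at 0.303, STD1 at 0.384, BC1L2, a COBRA-like gene, at 0.447 and the growth-regulating factor gene GRF6 at 0.578. A second OFP8 probe set was under background throughout, at 5.48 and 5.73 in WT and 6.72 and 7.54 in OsBIERF3-OE. For GRF10 a second probe set had a smaller fitted log2 change, 2.93 against 4.46. The B-type genes themselves lay at 0.353 (CYCB1-1), 0.709 (CYCB2-1), 0.998 (CDKB2-1) and 1.33 (CYCB2-2) from their own mean. With 4 arrays in 2 groups this likeness is mostly a likeness in the size of the change, and for genes with WT signals under background that size is not fixed.

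**Figure D5:**
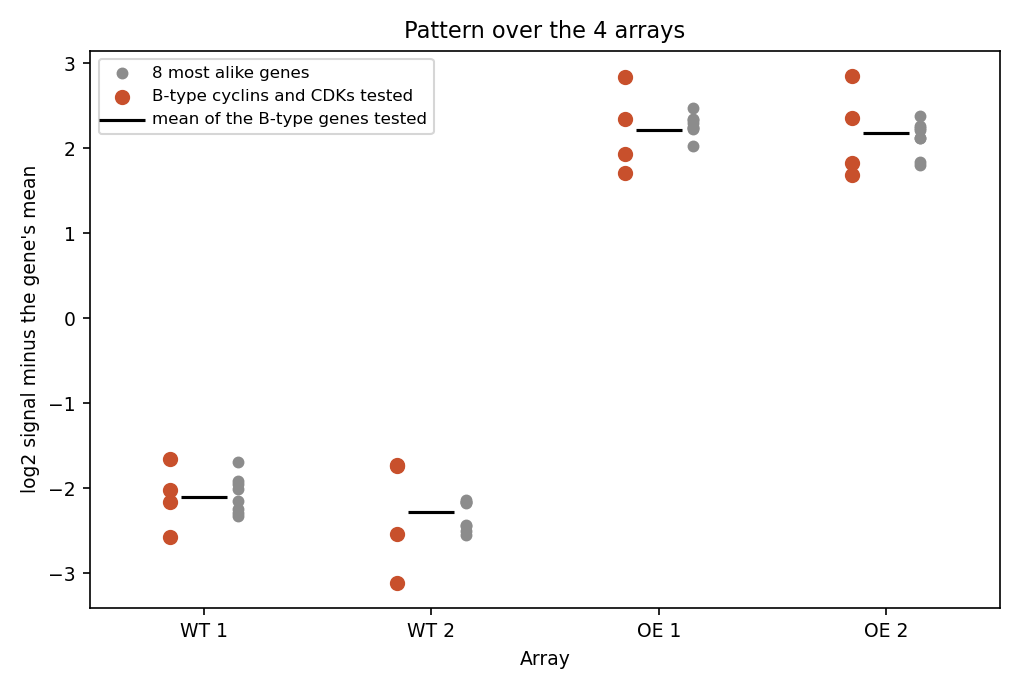
Log2 signal minus each gene's mean over the 4 arrays, for the 4 tested B-type genes (orange), their mean (black bar) and the 8 nearest genes (grey), 1 point per gene and array. The grey genes were chosen for lying near the bar; the B-type genes range from CDKB2-1, nearest to 0 on both OsBIERF3-OE arrays, to CYCB2-2, farthest from it.

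Marker genes of other tissues were set beside the B-type genes, from lists also drawn up with earlier results of these data known. Over all genes tested, 17.2% passed as higher and 14.5% as lower. A summed signal follows the brightest probe sets of its list, so it is compared between arrays only and does not measure the amount of a tissue. The 4 measured mesophyll genes of a leaf, RBCS, RCA, CAB2R and PSAG, were all above background on all arrays, with a summed signal of 38768 to 39266 in WT and 35604 to 36980 in OsBIERF3-OE. Of these 4 photosynthesis genes 2 fell, but after scaling on hybridization controls 1 was lower (PSAG) and 1 higher (RBCS). RBCS, the rubisco small subunit gene, named after its values were seen, did not pass as reported; it was called higher under that scaling (log2 change 0.34, limma adjusted p = 0.029) and lower with its probe sets averaged (-0.45, adjusted p = 0.0312). PSAG, of photosystem I, was 2.25-fold higher in WT (limma adjusted p = 0.00889), though its second, dim probe set did not pass, nor did the mean of its probe sets (adjusted p = 0.101). RCA, rubisco activase, was 1.33-fold higher in WT (limma adjusted p = 0.0329; 0.056 to 0.139 with any 1 array left out, 0.390 with that scaling). Of the genes of the growing leaf base, 11 of 14 tested rose and 3 did not pass, beside 17.2% higher over all genes tested. Their median log2 change was 1.45, or 1.29 with dim signals raised, and their summed signal 2666 to 3191 in WT and 4812 to 5158 in OsBIERF3-OE. GRF10 and GRF7 rose at least 10.8-fold and 5.31-fold, and GRF6, above background on 1 WT array, 14.6-fold, with limma adjusted p at or below 0.000639. A second GRF10 probe set, also called higher, read 21.7 and 20.8 in WT and 160.2 and 164.0 in OsBIERF3-OE. Its fitted log2 change was smaller, 2.93 against 4.46. Of the 7 measured shoot meristem genes, 6 were not above background on any array, among them OSH1, which defines the meristem, at 5.22 and 4.41 in WT and 4.41 and 4.63 in OsBIERF3-OE. Their summed signal was 373.1 and 407.8 in WT and 352.1 and 305.2 in OsBIERF3-OE, and 0 of 4 tested passed limma (2 at an unadjusted p under 0.05), FON1 and OSH43 included (limma adjusted p = 0.126 and 0.0931). Of 3 root genes 2 were not above background on any array, WOX11 among them. Of the 2 tested 1 rose, SHR1 at least 1.61-fold, and the summed signal of all 3 was 41.2 to 46.4 in WT and 74.1 to 76.5 in OsBIERF3-OE. Of 15 panicle and flower genes 9 were under background on all arrays, the summed signal was 385.4 and 386.1 in WT and 355.1 and 360.0 in OsBIERF3-OE, and 1 of 8 tested rose, DL, which also acts in the leaf midrib, 1.78-fold (limma adjusted p = 0.0202; 0.0537 to 0.0817 with any 1 array left out). How far the share of growing leaf tissue bears on the rise of the B-type genes was not tested.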

How the data were processed

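What the authors deposited is a linear intensity for every probe set and array. MAS5 is named, without version or role, per the submitters' processing notes; other steps of background correction and normalization are not stated there. After sorting, the log2 values of each array differed from the average array by at most 0.0803, so the distributions had been made nearly equal and a global shift would be hidden. Groups came from the sample titles. The labels call the replicates biological without naming separate plants or pools; a p-value here reflects the spread among these samples alone, which may be technical. Signals were floored at 1 and put on the log2 scale, 123 controls were dropped, and the upper 60% by mean, 34355 probe sets, entered a limma fit (version 3.58.1 under R 4.3.3, trend, genotype alone, Benjamini-Hochberg over all of them); the procedure was tested on simulated data. Because that mean covers all 4 arrays, a probe set dim in WT could be tested through high OsBIERF3-OE signals alone. For such a probe set, in the lists too, being tested was not independent of the rise. A gene is read from its brightest probe set. Where a group was not above background on either array, the fold is a lower bound: on each dim array the signal is raised to background where it lies under it, and the means of log2 values are compared.

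Members and lists were chosen with earlier results of these data known. In each list, the 3 called genes with the largest change above background in a group are named, or, where no gene passed, the 2 of smallest p. Names came from the platform table and the RefSeq gene table of assembly ASM3414082v1, and 3 genes that only share a name with a list were left out. Promoter and protein sequences and coordinates were not used here.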

Additional observations from a re-analysis of the deposited data

How the results depend on the processing

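The call and direction of CYCB1-1, CYCB2-1, CYCB2-2 and CDKB2-1 held under all 12 alternatives. Since these genes were picked on this very contrast, nothing is read from that. With 1 array left out, their log2 changes were 4.52 to 4.89, 3.61 to 3.90, 5.42 to 5.95 and 3.35 to 3.43. Counts of calls over all features changed with the processing. Leaving out 1 array gave 2017 to 3696 genes (2017 without WT replicate 2, 2310 without OsBIERF3-OE replicate 2, 2682 without WT replicate 1) and 3270 to 6171 probe sets (3270, 3753 and 4337 in the same order), where a lone array is assumed to vary like the other group. With the replicate block, 2608 genes and 4540 probe sets passed. The labels give no shared source for equal numbers, and the same-numbered deviations correlated at -0.25; with the numbers crossed, a choice made after seeing the data, 7734 genes and 12339 probe sets passed. The block left 0 calls among the other CDKs, 1 in the leaf list and 2 in the panicle list (DL higher, MADS58 lower), and MCM9 did not pass with it; CDKG-2 and the MADS genes are named after their values were seen. Among the list counts, the leaf list had 1 call without the variance trend and 1 with any array left out, the other CDKs 0 to 1 with an array left out and, with probe sets averaged, 1, which was CDKG-2 as lower, both rises being lost. The CDK inhibitors had 1 to 2 with an array left out. The panicle list had 0 to 2 with an array left out, none of them DL and all lower (MADS58 and MADS1), and 2 without the filter (DL higher, MADS6 lower), and the meristem list 2, both higher, with the hybridization scaling. With that scaling, list medians were 3.06 for A-type cyclins, 3.52 for chromosome segregation, 0.37 for CDK inhibitors, 1.71 for D-type cyclins, 1.66 for DNA replication, 0.30 for RBR and MYB3R, 1.74 for the growing leaf base, 1.80 for microtubule proteins and 0.10 for the other CDKs, as the scaling adds a constant to each. With 16 added to the signals they were 2.38 for A-type cyclins, 2.78 for segregation, 1.05 for D-type cyclins, 1.07 for replication, 1.06 for the leaf base and 1.12 for microtubule proteins, and with dim signals raised 1.10 for replication and 1.18 for microtubule proteins. With an array left out the median ran from 0.019 to 0.18 for CDK inhibitors, 1.23 to 1.61 for D-type cyclins and -0.20 to -0.13 for the other CDKs. The growing leaf base and DNA replication lists, with 11 and 16 calls as reported, had 10 and 14 with the replicate block. Both also had fewer calls with any 1 array left out. Where no cause is named, the cause was not tested. Signals under the background controls limit CYCB2-1 and CYCB2-2 to lower bounds.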
